A study of Mus musculus with 7 samples.

Results

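The microRNA processing and Argonaute genes are 9 genes that carry a microRNA from its primary transcript to the silencing complex: Drosha, Dgcr8, Xpo5, Dicer1, Tarbp2, Ago1, Ago2, Ago3 and Ago4. They were picked by name from the platform's gene symbols, with older names counted as the same gene. These names were Rnasen for Drosha, Eif2c1 to Eif2c4 for Ago1 to Ago4, and also 1110029L17Rik for Ago2. They are 9 of 22083 genes with a probe set of a single symbol, and all 9 were among the 16353 genes tested. The cells were J-1, a line of mouse embryonic stem cells, grown in full medium after lentiviral infection with short hairpin RNAs. Hairpin 1 against Mettl3 was used in 2 samples, hairpin 2 against Mettl3 in 2 other samples and a control hairpin against luciferase in 3 samples, and total RNA of each sample was hybridised to 1 mouse exon array. Mettl3 encodes the catalytic subunit of the methyltransferase that places N6-methyladenosine on RNA, and the arrays ask what its loss does to gene expression. All groups carried a hairpin, and no sample without one was analysed here.

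In the nucleus, the RNase Drosha and its RNA-binding partner Dgcr8 cut a hairpin precursor out of the primary microRNA transcript. Exportin 5, the product of Xpo5, carries the precursor to the cytoplasm, where the RNase Dicer1 with its partner Tarbp2 cuts it to a short duplex, and 1 strand is loaded into an Argonaute protein that silences matching messenger RNAs. Mouse embryonic stem cells without Dgcr8 or Dicer1 lack most microRNAs and fail to differentiate properly. Short hairpin RNAs of the kind used for the knockdown enter the same pathway after the Drosha step.

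The microRNAs that these genes produce in embryonic stem cells belong mainly to the miR-290 and miR-302 family, while let-7, which spreads on differentiation, is held back by the Lin28 proteins. Mature sequences from RefSeq (build GRCm38.p6) are shown because the target genes described further on are grouped by these seeds. Capitals mark the seed, bases 2 to 8 counted from the 5′ end, which pairs with target messenger RNAs. The first 4 have the seed AAGUGCU, which 5 mature mouse microRNAs in the sequence table share, and the other 4 have the seed GAGGUAG, shared by 11.
miR-291a-3p: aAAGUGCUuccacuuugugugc
miR-294-3p: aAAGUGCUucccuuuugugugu
miR-295-3p: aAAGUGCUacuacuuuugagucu
miR-302b-3p: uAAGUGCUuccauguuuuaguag
let-7a-5p: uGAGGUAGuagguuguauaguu
let-7c-5p: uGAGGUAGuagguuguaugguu
let-7g-5p: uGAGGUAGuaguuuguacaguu
let-7i-5p: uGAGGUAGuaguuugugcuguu
The arrays measured messenger and primary transcripts and not these mature microRNAs.

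Of the 9 genes, Ago1 alone passed the test, and it rose with both Mettl3 hairpins, by 1.52-fold on average. The Drosha, Dgcr8, Xpo5, Dicer1, Tarbp2, Ago2, Ago3 and Ago4 values were 0.00 to 0.16 higher on the log2 scale and did not pass. A gene value here is the median, on each array, of the log2 values of its probe sets, which are groups of probes within single exons. Groups were compared with limma, and a gene was called where its Benjamini-Hochberg adjusted p over all 16353 genes was below 0.05. By this rule 5.53% of all genes tested were called higher and 2.37% lower with both hairpins, together 7.9%, and 1 of the 9 members was called higher and 0 lower. Only Ago1 had an unadjusted p below 0.05, against 24.2% of all genes. All 9 differences were positive, with a median of 0.12, while over all genes the median was 0.00 and 50.1% were positive. Some of them took either sign across the alternatives. Centring each array on its median gene gave -0.06 for Tarbp2, -0.05 for Ago4 and -0.03 for Xpo5. The stricter filter gave -0.01 for Ago3, which was 0.15 in the main fit and so not among the smallest. Whether the replicates of a group were grown as separate cultures is not stated, and the p-values therefore reflect a spread that could be technical.

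The knockdown itself was seen on every array: Mettl3 was at 8.97 and 8.67 with hairpin 1 and at 8.71 and 8.66 with hairpin 2, against 10.38, 10.46 and 10.14 with the luciferase hairpin. Mettl3 fell by 1.57 on the log2 scale (SE 0.105, limma adjusted p = 0.000116). Over all genes, the first principal component (41% of the variance) set the 4 knockdown arrays (7.26 to 16.4) apart from the luciferase arrays (-17.7 to -13.7). The next component (21.4%) set hairpin 1 replicate 2 (-17.8) and luciferase replicate 3 (-10.4) apart from the others. Of 13 embryonic stem cell markers, 13 were expressed above the median probe set, their mean level was 11.74 to 11.90 on the knockdown arrays against 11.80 to 11.94 on the luciferase arrays, and limma called 0 of them (1 at an unadjusted p below 0.05). Of 13 fibroblast markers, which feeder cells would carry, 7 lay above the median probe set, and their mean level was 7.18 to 7.36 on the knockdown arrays against 7.32 to 7.41 on the luciferase arrays. Limma called 0 of the 12 fibroblast markers tested (2 at an unadjusted p below 0.05). Of these 12, 2 were higher and 10 lower over both hairpins, with a median log2 fold change of -0.14. Of 13 markers of differentiated lineages, 1 was called, Sox1, a neural transcription factor, which fell by 0.39 on the log2 scale (adjusted p = 0.0488, a call that held in 8 of 18 alternatives and, with single arrays left out, only without hairpin 2 replicate 2). Of these 13, 5 were higher and 8 lower over both hairpins, and 5 had an unadjusted p below 0.05. The neural markers Pax6 and Neurog1 were 0.27 and 0.25 higher and did not pass over both hairpins (adjusted p = 0.101 and 0.137). Gata6 and Sox17 differed by -0.24 and -0.19 and did not pass either (limma adjusted p = 0.174 and 0.183). Neurog1 was called with hairpin 2 (0.49, adjusted p = 0.0461) and differed by 0.02 with hairpin 1 (limma adjusted p = 0.94). Its difference of hairpin 1 minus hairpin 2, -0.47, did not pass (limma adjusted p = 0.2955). Sox1 was called with neither hairpin alone. The mean level of the differentiated lineage markers was 7.47 to 7.60 on the knockdown arrays against 7.51 to 7.60 on the luciferase arrays. In these bulk samples, fewer cells of a type and less RNA per cell cannot be told apart.

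Ago1 encodes 1 of the 4 Argonaute proteins of the mouse, which bind microRNAs and recruit the silencing machinery. Its gene value was 9.64 and 9.52 with hairpin 1 and 9.29 and 9.46 with hairpin 2, against 8.93, 8.93 and 8.76 with luciferase. All 4 knockdown arrays lay above all 3 luciferase arrays, and both hairpin 1 arrays lay above both hairpin 2 arrays. The mean was 9.58 ± 0.09 with hairpin 1 (SD, n = 2) and 9.38 ± 0.12 with hairpin 2 (SD, n = 2), against 8.87 ± 0.09 with luciferase (SD, n = 3). With both hairpins the log2 fold change was 0.61 (SE 0.086, 95% interval 0.41 to 0.80), with a limma adjusted p of 0.00332. Hairpin 1 alone gave 0.71 (1.64-fold, adjusted p = 0.00509), where 3.97% of all genes were called higher. Hairpin 2 alone gave 0.50 (1.42-fold, adjusted p = 0.0287), where 2.71% of all genes were called higher. The difference between the hairpins, 0.21 with an interval of -0.04 to 0.46, did not pass (adjusted p = 0.655). The hairpin 2 call was lost when any 1 of the 5 arrays of that comparison was left out, with fold changes of 0.41 to 0.59 and adjusted p of 0.0501 to 0.275. The hairpin 1 call was lost without hairpin 1 replicate 1 (0.65, adjusted p = 0.0507), while the call over both hairpins held in all 18 alternatives run (0.53 to 0.65, adjusted p 0.000498 to 0.0282).

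**Figure D1:**
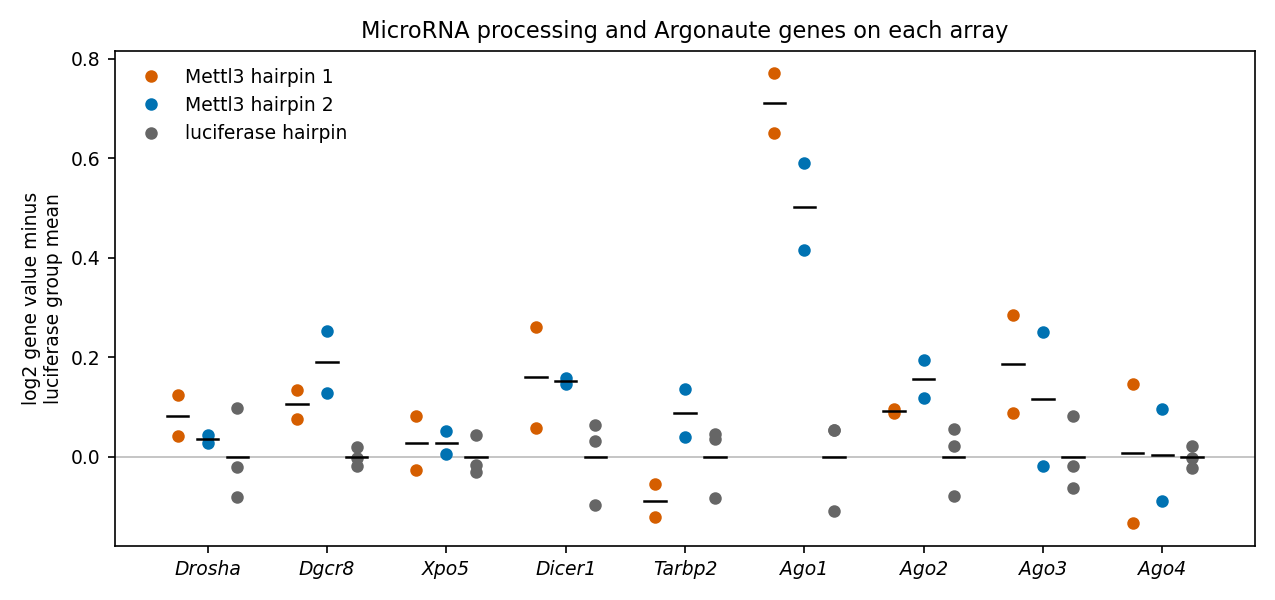
The log2 gene value of each of the 9 genes on each array, minus the mean of the 3 luciferase arrays of that gene; points are arrays, with Mettl3 hairpin 1, Mettl3 hairpin 2 and luciferase from left to right, and black bars are group means. Ago1 is the gene whose knockdown arrays stand well clear of its luciferase arrays, and those of Drosha, Xpo5, Dicer1, Tarbp2, Ago3 and Ago4 overlap.

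The other Argonaute genes did not pass. Ago2, which encodes the Argonaute that can itself cut a target RNA, was at 11.01 and 11.02 with hairpin 1 and at 11.04 and 11.11 with hairpin 2, against 10.98, 10.84 and 10.94 with luciferase. Its knockdown arrays also lay above all luciferase arrays, by a small margin, and the fold change of 0.12 on the log2 scale did not pass (adjusted p = 0.351). Ago3 was at 8.64 and 8.44 with hairpin 1 and at 8.33 and 8.60 with hairpin 2, against 8.33, 8.43 and 8.29 with luciferase. Its replicates spread by as much as the groups differed (0.15, adjusted p = 0.365). Of the 32 Ago4 probe sets, 12 were brighter than the median probe set and were used. Ago4 was at 6.95 and 6.67 with hairpin 1 and at 6.72 and 6.90 with hairpin 2, against 6.83, 6.80 and 6.78 with luciferase, and the groups overlapped (0.01, adjusted p = 0.976). This value depended on the filter for dim probe sets. Without it the Ago4 fold change was 0.22 (limma adjusted p = 0.241), and the stricter filter left too few Ago4 probe sets for a test. The 95% intervals reached up to 0.30 for Ago2 and 0.36 for Ago3.

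Each array's Ago1 deviation from the luciferase mean was also set against the mean deviation of Ago2, Ago3 and Ago4. The excess was 0.60 and 0.63 with hairpin 1 and 0.41 and 0.41 with hairpin 2, against 0.03, 0.05 and -0.09 with luciferase. The mean difference was 0.51. This contrast was formed after the values had been seen and was not tested.

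Ago1, Ago3 and Ago4 lie next to each other on mouse chromosome 4, in the order Ago3, Ago1, Ago4, while Ago2 lies on chromosome 15. Among these 3 genes and the 3 nearest tested protein-coding genes on either side, Ago1 was the 1 that limma called. On the side of Ago3 the log2 fold changes of both hairpins were 0.20 for Tekt2, 0.14 for Adprhl2 and -0.08 for Col8a2. On the side of Ago4 they were 0.12 for Clspn, -0.04 for Psmb2 and -0.02 for Tfap2e.

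The Microprocessor genes were close to their control levels. Drosha was at 11.06 and 10.98 with hairpin 1 and at 10.98 and 10.97 with hairpin 2, against 10.92, 11.04 and 10.86 with luciferase. The groups overlapped, and the fold change was 0.06 on the log2 scale (95% interval -0.12 to 0.24, adjusted p = 0.685). Dgcr8 was at 10.18 and 10.12 with hairpin 1 and at 10.17 and 10.29 with hairpin 2, against 10.04, 10.06 and 10.02 with luciferase. Its knockdown arrays all lay above the tightly grouped luciferase arrays, but the difference of 0.15 (interval -0.02 to 0.32) did not pass (adjusted p = 0.265). Such a separation, all 4 knockdown arrays above all 3 luciferase arrays, was found for 3 of the 9 members (Dgcr8, Ago1 and Ago2) and for 13.4% of all genes tested.

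Xpo5 was at 11.11 and 11.01 with hairpin 1 and at 11.04 and 11.08 with hairpin 2, against 11.08, 11.02 and 11.00 with luciferase. The groups overlapped almost wholly (0.03, interval -0.14 to 0.20, adjusted p = 0.852).

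Dicer1 was at 10.49 and 10.29 with hairpin 1 and at 10.38 and 10.39 with hairpin 2, against 10.26, 10.29 and 10.13 with luciferase. Hairpin 1 replicate 2 lay level with luciferase replicate 2, so the groups overlapped, and the fold change of 0.16 on the log2 scale (interval -0.03 to 0.34) did not pass (adjusted p = 0.294). With the mean of the probe sets in place of their median the fold change was 0.23 and was called (adjusted p = 0.0384), in a fit that called 2840 of the 16353 genes. With a median polish it was 0.20 and was called (adjusted p = 0.039), in a fit that called 2469. Tarbp2, the double-stranded RNA-binding partner of Dicer1, was at 9.87 and 9.81 with hairpin 1 and at 9.97 and 10.06 with hairpin 2, against 9.97, 9.96 and 9.84 with luciferase. Both hairpin 2 arrays lay above both hairpin 1 arrays, with luciferase between and across them, and the difference over both hairpins was near 0 (0.00, interval -0.17 to 0.18, adjusted p = 0.997).

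**Figure D2:**
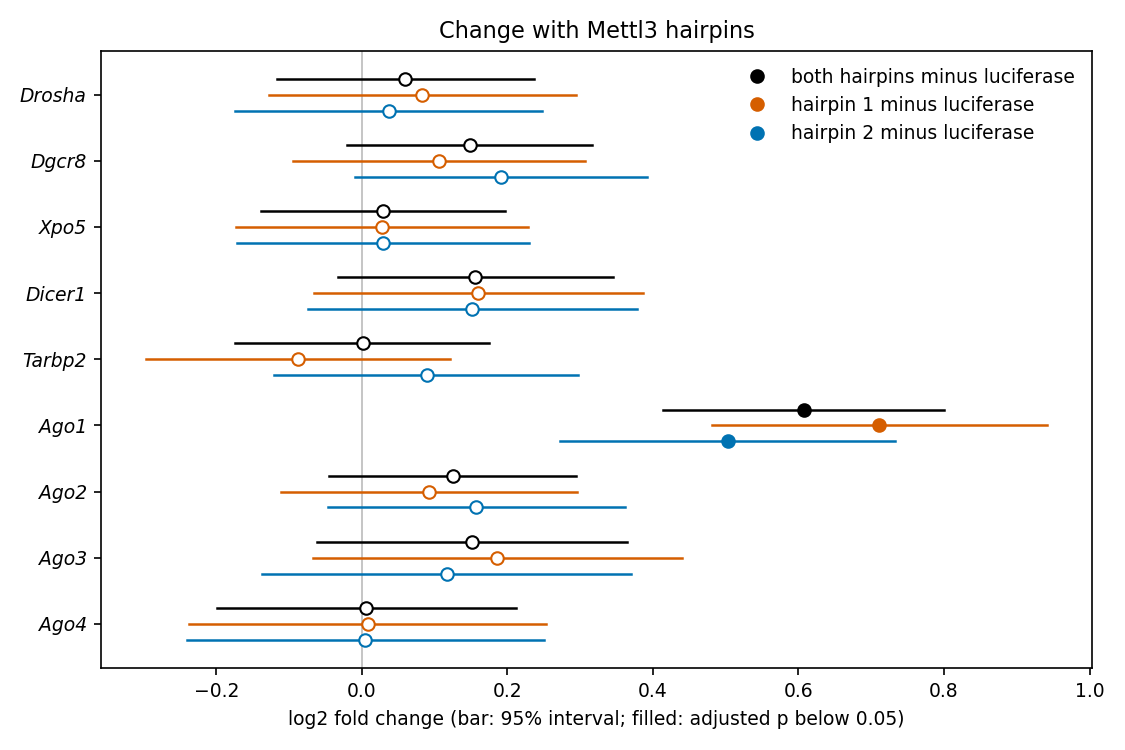
Log2 fold change of each of the 9 genes for both Mettl3 hairpins, hairpin 1 and hairpin 2, each minus luciferase, with 95% intervals from the limma fit; filled points passed an adjusted p below 0.05. The Ago1 intervals lie above 0 in each comparison, at 0.61, 0.71 and 0.50, and the intervals of the other 8 genes include 0.

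Between the hairpins themselves limma called 0 of the 9 members and 0 had an unadjusted p below 0.05, where 0.104% of all genes were called. The differences of hairpin 1 minus hairpin 2 ran from -0.18 for Tarbp2 to 0.21 for Ago1. Within groups the members' values spread with an SD of 0.01 to 0.20 for hairpin 1, 0.01 to 0.19 for hairpin 2 and 0.02 to 0.09 for luciferase. Levels of different genes were not set against each other, since their probes differ.

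The Ago1 difference ran through most of the gene's probe sets. The platform holds 325 probe sets of the 9 genes, of which 299 passed the brightness limit, a mean above that of the median probe set, and were used, 12 for Ago4 and 18 to 49 for each of the others. Of the 38 Ago1 probe sets, 37 had a higher mean with the Mettl3 hairpins, the median log2 fold change was 0.58, and 33 had an unadjusted p below 0.05 in the higher direction, against 12.3% of all 229811 probe sets used. On 30 of the 38, all 4 knockdown arrays lay above all 3 luciferase arrays, against 12.2% of all probe sets. After adjustment over all probe sets, 14 Ago1 probe sets were called higher, against 1.73% of all. No probe set of the other 8 genes was called, so these 14 are the called ones among the 299 (4.68%). Hairpin 1 alone gave 11 called Ago1 probe sets, where 1.02% of all were called higher. Hairpin 2 alone gave 0, where 0.286% of all were, although 26 of the 38 had an unadjusted p below 0.05 with a higher value. Probe sets of a gene share the same 7 arrays and are not replicates. The number of calls rested on single arrays, since leaving out any 1 of the 7 left 0 or 1 member probe set called.

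The largest change was in Ago1 probe set 4731001, at 7.84 and 7.71 with hairpin 1 and at 8.08 and 8.0 with hairpin 2, against 7.31, 7.08 and 6.61 with luciferase. It rose by 0.91 on the log2 scale (limma adjusted p = 0.0418). At the other end were 2 Ago1 probe sets with changes near 0. Ago1 probe set 4918870 was at 10.11 and 10.40 with hairpin 1 and at 10.28 and 10.22 with hairpin 2, against 10.47, 10.07 and 10.41 with luciferase. Ago1 probe set 5263098 was at 9.64 and 9.53 with hairpin 1 and at 9.62 and 9.69 with hairpin 2, against 9.68, 9.58 and 9.43 with luciferase. Both groups overlapped on these probe sets. Limma's diffSplice test of single probe sets sets the fold change of each against that of the rest of its gene. The log2 fold change of 4918870 differed from that of the other Ago1 probe sets by -0.61 (diffSplice adjusted p = 0.0269). For 5263098 this difference in fold change was -0.49 (diffSplice adjusted p = 0.143). In that test 0.685% of all probe sets were called. Which exons these probe sets lie in was not determined, since the build behind the platform's coordinates is not given in the sources used here.

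**Figure D3:**
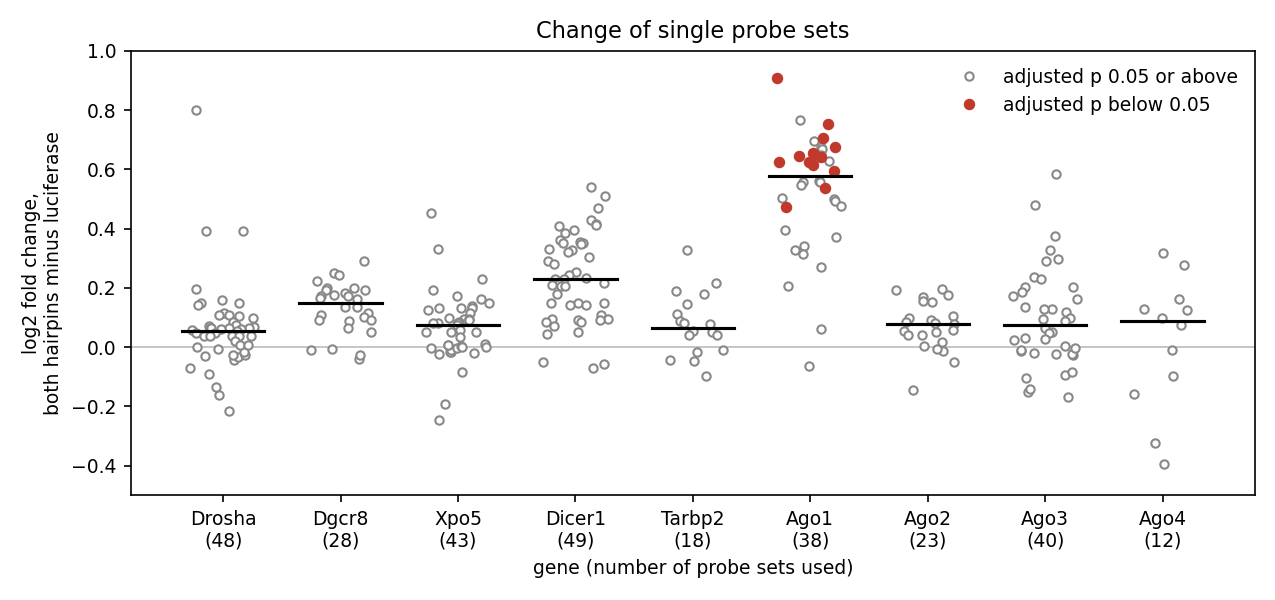
Log2 fold change of both Mettl3 hairpins minus luciferase for each of the 299 probe sets of the 9 genes; each point is a probe set, red where its adjusted p over all probe sets was below 0.05, and black bars are the medians of each gene. All 14 red points are of Ago1, whose median is 0.58, and the Dicer1 points are shifted upward as well, with a median of 0.23 and no call.

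Dicer1 had the largest share of probe sets with a low unadjusted p among the other 8 genes. Of its 49 probe sets, 46 had a higher mean with the Mettl3 hairpins, with a median log2 fold change of 0.23, and 23 had an unadjusted p below 0.05 with a higher value, where 12.3% of all probe sets did, but limma called 0 after adjustment. On 23 of the 49 all 4 knockdown arrays lay above all 3 luciferase arrays, where 12.2% of all probe sets were so ordered. Of the 7840 genes with 12 or more probe sets, 14.2% had at least 90 percent of them higher. Over all probe sets used 54.1% were higher with the Mettl3 hairpins, and among the other members 24 of 28 were for Dgcr8, 19 of 23 for Ago2, 36 of 48 for Drosha, 32 of 43 for Xpo5, 13 of 18 for Tarbp2, 27 of 40 for Ago3 and 7 of 12 for Ago4. The medians were 0.15 for Dgcr8, 0.09 for Ago4, 0.08 for Xpo5, Ago2 and Ago3, 0.07 for Tarbp2 and 0.06 for Drosha.

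Over a whole gene, limma's diffSplice F test asks whether its probe sets change unequally. For both hairpins it called none of the members, against 4.97% of all genes, and Ago1 was the 1 member with an unadjusted value below 0.05 (limma adjusted p = 0.208). A single Drosha probe set, 5035414, stood apart in the test against the rest of its gene. Its log2 fold change was 0.75 above that of the other Drosha probe sets (diffSplice adjusted p = 0.000118). Drosha probe set 5035414 was at 6.63 and 6.18 with hairpin 1 and at 6.15 and 6.71 with hairpin 2, against 4.98, 5.98 and 5.89 with luciferase. It was the dimmest of the 48 Drosha probe sets, its mean of 6.07 lay just above the limit of 6.02 for use, and luciferase replicate 1 was far below the other arrays. Each of its luciferase values lay below this limit and each knockdown value above it, so the probe set was kept only through its knockdown arrays. The filter thus favoured a higher value with the Mettl3 hairpins, and the diffSplice p-value of this probe set is no support for a change. Its own change against luciferase did not pass (0.80, adjusted p = 0.183).

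The genes whose values followed Ago1 most closely over the 7 arrays were Klhl21, Slc1a4 and Dhrs11, with Pearson's r of 0.997, 0.996 and 0.995. Slc1a4 encodes a neutral amino acid transporter, Klhl21 an adaptor of a ubiquitin ligase and Dhrs11 a short-chain dehydrogenase. Their own log2 fold changes were 0.27 for Klhl21 (adjusted p = 0.0604), 0.54 for Slc1a4 (adjusted p = 0.00373) and 0.70 for Dhrs11 (adjusted p = 0.00188). Such likeness was common: 775 of 15306 genes had an r above 0.9 with Ago1, over 7 arrays that fall into knockdown and control.

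The rest of the pathway was described by 6 lists with 79 genes, of which 75 were tested. Limma called 3 of them higher (Lin28b, Rian and Hmga2) and 2 lower (Tnrc6c and Ei24) with both hairpins, 6.67% of those tested, where 7.9% of all genes were called. The counts of calls in the single lists below stand beside the same 7.9% of all genes. The median log2 fold change was 0.02, against 0.00 over all genes.

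**Figure D4:**
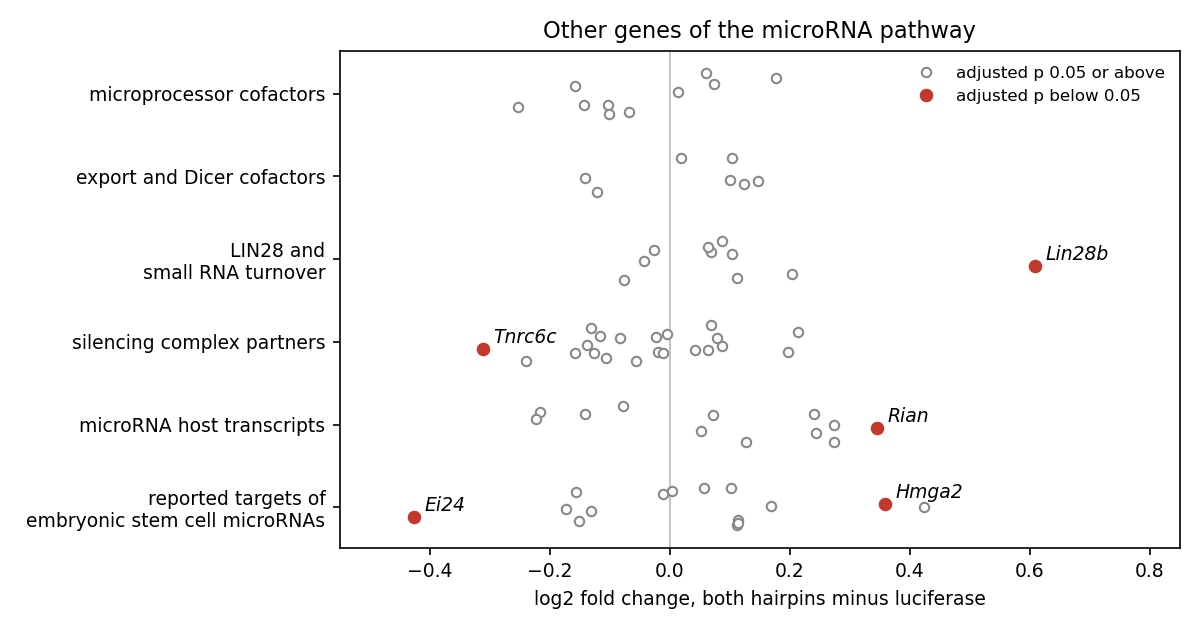
Log2 fold change of both Mettl3 hairpins minus luciferase for the 75 tested genes of 6 microRNA pathway lists; each point is a gene, red and named where its adjusted p was below 0.05. Lin28b (0.61), Hmga2 (0.36) and Rian (0.34) lie to the right and Ei24 (-0.43) and Tnrc6c (-0.31) to the left.

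Cofactors of the nuclear and export steps stayed below the threshold. Of 10 Microprocessor cofactors tested, 0 were called by limma (1 had an unadjusted p below 0.05) and the median was -0.09. The largest differences were -0.25 for Hnrnpa2b1, an RNA-binding protein reported to guide the Microprocessor to methylated primary transcripts (adjusted p = 0.171), and 0.18 for Srrt, which links the cap-binding complex to primary microRNAs (adjusted p = 0.322). Of 7 export and Dicer cofactors, 0 were called (0 at an unadjusted p below 0.05) and the median was 0.10. The largest were 0.15 for Adar, an RNA-editing enzyme (adjusted p = 0.312), and -0.14 for Dhx9, an RNA helicase (adjusted p = 0.305).

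Among 10 genes of LIN28 function and small RNA turnover, 1 was called, Lin28b. The Lin28 proteins bind the let-7 precursor and block its processing, and Lin28b is itself a let-7 target. Lin28b was at 8.22 and 7.94 with hairpin 1 and at 8.06 and 7.98 with hairpin 2, against 7.57, 7.61 and 7.14 with luciferase. All knockdown arrays lay above all luciferase arrays, as they did for 13.4% of all genes tested. Lin28b rose by 0.61 on the log2 scale (1.52-fold, SE 0.126, limma adjusted p = 0.0177). All 10 of its probe sets were higher, where 54.1% of all probe sets used were. Hairpin 1 gave 0.64 (adjusted p = 0.0371) and hairpin 2 gave 0.58 (adjusted p = 0.0693). Its paralog Lin28a differed by 0.09 (adjusted p = 0.578). The Lin28b call over both hairpins held in 12 of 18 alternatives (0.46 to 0.72, adjusted p 0.00125 to 0.0732). It was lost without hairpin 1 replicate 1 (0.54), hairpin 2 replicate 1 (0.59) or hairpin 2 replicate 2 (0.63).

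Of 21 partners of the silencing complex, 1 was called, Tnrc6c, with a median of -0.02 for the list. The 3 Tnrc6 genes encode the GW182 scaffold proteins that link Argonaute to deadenylation. Tnrc6c was at 9.93 and 9.88 with hairpin 1 and at 9.89 and 9.94 with hairpin 2, against 10.25, 10.21 and 10.20 with luciferase. These groups did not overlap, but the share of all genes separated downward in this way was not counted. Tnrc6c fell by 0.31 on the log2 scale (SE 0.073, limma adjusted p = 0.0297), a call that held in 7 of 18 alternatives (-0.37 to -0.23, adjusted p 0.00516 to 0.128). It was lost when any 1 of the 7 arrays was left out. Tnrc6c passed with neither hairpin alone (adjusted p = 0.0636 with hairpin 1 and 0.0899 with hairpin 2). Mov10, an RNA helicase that associates with Argonaute, was called higher with hairpin 1 (0.35, adjusted p = 0.0429), and neither hairpin 2 (0.08, adjusted p = 0.686) nor both hairpins (0.21, adjusted p = 0.105) passed. Tnrc6a and Tnrc6b differed by -0.01 and 0.06 (adjusted p = 0.981 and 0.638).

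Of 12 tested transcripts that host microRNAs, 1 was called, Rian, with a median of 0.10 for the list. Rian, Meg3 and Mirg are maternally expressed RNAs of 1 imprinted cluster on chromosome 12 that holds many microRNAs. Rian was at 10.95 and 10.91 with hairpin 1 and at 10.77 and 10.89 with hairpin 2, against 10.46, 10.68 and 10.46 with luciferase. Rian rose by 0.34 (limma adjusted p = 0.0391), and its knockdown arrays lay above all luciferase arrays, as for 13.4% of all genes tested. Rian passed with neither hairpin alone (adjusted p = 0.0542 with hairpin 1 and 0.154 with hairpin 2). The Rian call held in 7 of 18 alternatives (0.25 to 0.42, adjusted p 0.00988 to 0.16) and, with single arrays left out, only without luciferase replicate 2. Meg3 and Mirg were 0.27 and 0.24 higher and did not pass (adjusted p = 0.0661 and 0.204).

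Reported targets of the printed microRNA families were looked at last. Of 9 targets of the miR-290 and miR-302 family, 3 had a higher and 6 a lower value with the Mettl3 hairpins, the median was -0.13, and 1 was called. That gene was Ei24, which encodes a membrane protein linked to cell death and autophagy. Ei24 was at 10.98 and 10.80 with hairpin 1 and at 11.07 and 10.89 with hairpin 2, against 11.36, 11.45 and 11.27 with luciferase. Ei24 fell by 0.43 on the log2 scale (SE 0.089, limma adjusted p = 0.0182). The groups did not overlap and all 17 probe sets were lower, but how many of all genes were so ordered downward was not counted. The Ei24 call held in 12 of 18 alternatives (-0.48 to -0.37, adjusted p 0.00277 to 0.0766). It was lost without luciferase replicate 1 (-0.42), luciferase replicate 2 (-0.38) or hairpin 2 replicate 2 (-0.38). Hairpin 1 alone gave -0.47 for Ei24 (adjusted p = 0.0311) and hairpin 2 gave -0.38 (adjusted p = 0.0859). Of 6 let-7 targets, 6 had a higher value over both hairpins, and the median was 0.14. With single hairpins this did not hold for all, since Ccnd2 was -0.01 with hairpin 1 and Arid3b was -0.03 with hairpin 2. Of the 6, 1 was called over both hairpins, Hmga2, a chromatin protein of growing cells. Over all genes tested, 50.1% had a higher value and 7.9% were called. The others of the 6 did not pass, with limma adjusted p from 0.0941 for Mycn to 0.717 for Ccnd2. Lin28b, itself a let-7 target, was kept in the LIN28 list and is not among the 6. Hmga2 was at 9.25 and 9.26 with hairpin 1 and at 8.93 and 8.91 with hairpin 2, against 8.66, 8.82 and 8.71 with luciferase. The hairpin 1 arrays were the highest and the luciferase arrays the lowest. Knockdown arrays all above luciferase arrays were found for 13.4% of all genes tested. Hmga2 rose by 0.36 over both hairpins (limma adjusted p = 0.0208) and by 0.52 with hairpin 1 (adjusted p = 0.0108), and hairpin 2 gave 0.19 (adjusted p = 0.299). Of the 12 Hmga2 probe sets, 8 were higher and 4 lower over both hairpins, with a median change of 0.189. Only 4 had an unadjusted limma p below 0.05, all with a higher value, and 2 were called. The difference between the hairpins, 0.33, did not pass (adjusted p = 0.372), and the call over both hairpins held in 7 of 18 alternatives (0.16 to 0.40, adjusted p 0.0052 to 0.11). With single arrays left out, it held only without hairpin 1 replicate 2 or luciferase replicate 2, and a median polish gave the lowest value, 0.16 (adjusted p = 0.0762).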

How the data were processed

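The authors deposited log2 values for 1201338 probe sets of single exons on each of 7 arrays. Per the submitters' processing notes, RMA and R 2.11.1 were involved; the sources used here do not give the annotation build. RMA gives all arrays nearly the same distribution (array medians 6.03 to 6.07), so a shift of most transcripts would not be seen. No arrays were identical. The platform's annotation gave 311384 probe sets 1 symbol, 6385 several and 883569 none; older symbols of 45560 were updated through a RefSeq gene table (GRCm38.p6), and 834 were not matched.

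Gene values are medians of probe sets with 1 symbol and a mean above 6.02, the median of all probe sets, with at least 3 such probe sets. They were fitted with limma 3.58.1 (lmFit, eBayes) in R 4.3.3 on all 7 arrays, with 1 mean per group and 4 residual degrees of freedom. Adjustment was Benjamini-Hochberg over all genes, or over all 229811 probe sets; exon usage used diffSplice. The code was tested on simulated data. The number of arrays limits the precision; detection p-values and scan batches were not used here.

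The members and the gene lists were chosen with earlier results of these data known. Named are all 9 members, Mettl3, the called genes of each list (at most 4) or else its 2 largest differences, called or range-setting probe sets, and the 3 genes most like Ago1. Predicted and receptor-family genes were left out of the last. The neighbours of Ago1, Lin28a, Mov10, Pax6, Neurog1, Gata6, Sox17, Tnrc6a, Tnrc6b, Meg3, Mirg, Ccnd2, Arid3b, and probe sets 4918870, 5263098 and 5035414 were named after their values were seen. Alternatives were other filters, summaries, normalizations and spread models, a replicate block, and leaving out arrays.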

Additional observations from a re-analysis of the deposited data

How the results depend on the processing

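Over both hairpins 1 member was called, Ago1, and 2 were with the mean of probe sets or a median polish (Dicer1 and Ago1). With hairpin 1 it was 1, and 2 with the stricter filter (probe sets above the 75th percentile) or a median polish (Dicer1 and Ago1), and 0 to 1 when single arrays were left out. With hairpin 2 it was 1, and 0 without a filter, and 0 to 1 when single arrays were left out. The hairpin 2 count was also 0 without luciferase replicate 3 and hairpin 1 replicate 2 together, an alternative added after seeing the data. Correlations of deviations from the group means ran from -0.26 to 0.08 for same-numbered arrays. They cannot settle whether replicate numbers pair the samples, since the deviations of the 2 arrays of a hairpin mirror each other. With replicate number as a block the count was 1 over both hairpins, 1 with hairpin 1 and 0 with hairpin 2, and 0 member probe sets were called in place of 14. With the numbers of the hairpins crossed, also added after seeing the data, the counts were 1, 1 and 0. Member probe sets called were 0 without a filter, 32 with the stricter one (24 of Ago1, 8 of Dicer1) and 0 to 1 when single arrays were left out. Members with exon usage called were 0, and 0 to 1 when single arrays were left out (Drosha, without luciferase replicate 3). Over all genes, 1292 were called for both hairpins, 484 without a filter, 2840 with the mean, 2469 with a median polish, 540 with the block, 542 with it crossed, 605 to 1098 when single arrays were left out and 705 without both arrays named above. A few differences of uncalled genes changed sign. Over both hairpins Tarbp2 and Ago4 were -0.06 and -0.05 with centring and -0.04 and -0.004 with the block, Tarbp2 was -0.04 with quantile normalization, and Xpo5 was -0.03 with centring. Tarbp2 with hairpin 1 (-0.09) was 0.11 without a filter, 0.008 with the stricter one, 0.03 with the mean and 0.018 with a median polish. Ago3 with the stricter filter was -0.008 over both hairpins and -0.05 with hairpin 2, and with hairpin 2 it ranged from -0.018 to 0.251 when single arrays were left out. Over the same omissions Ago4 with hairpin 1 ranged from -0.13 to 0.15, Ago4 between hairpins from -0.14 to 0.14 and Ago3 between hairpins from -0.065 to 0.204. Of 1063 other values under the alternatives, 89 lost and 39 gained a call, 10 changed sign by more than the standard error, and 925 did neither. Where an omission left 1 array in a group, it was assumed to vary like the other groups. The cause of these changes was not tested.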
